A study of Mus musculus with 14 samples.

Results

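The genotype by temperature interaction in brown adipose tissue (BAT) is the difference between 2 cold responses, the change from 30 °C to 4 °C in adipocyte-specific CLSTN3B knockouts (AdC3KO) minus the same change in wild-type mice (WT). It was computed over all 14 of the 14 libraries of the deposited count table, using gene rows only. RNA was sequenced from BAT of male mice aged 10 weeks, all of them acclimated to 30 °C, which is thermoneutral for mice, for 2 weeks. The groups were WT at 30 °C (3 libraries), AdC3KO at 30 °C (3), WT after 6 h at 4 °C (4) and AdC3KO after 6 h at 4 °C (4). The promoter that drives the adipocyte deletion is not given in the sources used here, and the knockout is present at both temperatures, so the comparison asks how the absence of CLSTN3B changes the response to cold and not what cold does alone. The labels do not say that each library is a separate mouse, and the p-values below reflect library-to-library spread only, which may be partly technical.

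BAT produces heat in the cold. Noradrenaline from sympathetic nerves acts on beta-adrenergic receptors of the brown adipocyte, cyclic AMP rises, fatty acids are released from lipid droplets, and UCP1 lets the inner mitochondrial membrane leak protons so that respiration yields heat. Cyclic AMP also switches on transcription, through CREB at its response element and through the coactivator PGC-1alpha. CLSTN3B, transcribed from within Clstn3, is an adipocyte protein that the title of the series ties to droplet size and thermogenesis.

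Library depth ran from 19.9 to 29.0 M gene counts. The 12 brown adipocyte marker genes summed to between 14480 and 37681 CPM (counts scaled to library size and TMM factor) in every library. Skeletal muscle genes were raised in 5 libraries, replicate 3 of WT at 30 °C, replicates 1 and 2 of AdC3KO at 30 °C, replicate 2 of WT at 4 °C and replicate 3 of AdC3KO at 4 °C. Their mean log2 CPM was 1.55 to 4.69 in these and −1.55 to −1.03 in the others. Their summed level over 18 genes was 92.8 to 341 CPM in WT and 97.8 to 174 CPM in AdC3KO at 30 °C, and 55.7 to 114 CPM in WT and 50.6 to 677 CPM in AdC3KO at 4 °C. The muscle myosin Myh4 had 0 counts in 2 WT libraries at 30 °C and in 3 libraries of each genotype at 4 °C. Leaving out the 5 libraries high in muscle transcripts keeps 1 AdC3KO library at 30 °C, replicate 3. Values given below without those 5 therefore rest on that library, and an effect of muscle content alone was not tested. Interferon response genes were high in replicate 4 of WT at 4 °C and replicate 1 of AdC3KO at 4 °C, with mean log2 CPM of 6.11 and 4.57 over 21 genes, against 2.25 to 3.69 elsewhere.

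No gene passed the test for a different cold response. For 60.7% of tested genes (9678) the 95% interval of the difference lay within 2-fold, among them Ucp1, Dio2 and Plin2. Of 15949 tested genes, edgeR's quasi-likelihood test with Benjamini-Hochberg adjustment at 0.05 called 0 for the interaction (0%), and the smallest adjusted p was 0.9999. At an unadjusted p below 0.05 there were 349 genes (2.19%), of which 163 had a positive interaction (1.02%) and 186 a negative one (1.17%). The 2.19% is below the share of 0.05 that evenly spread p-values would give. DESeq2 also called 0 genes, with 342 at an unadjusted p below 0.05, and limma voom called 0, with 338. A missed threshold does not show that the responses were equal, so most values are given with their intervals. All interaction values below are on the log2 scale, where a value of 1 means that the fold change in AdC3KO was 2 times that in WT. Most have a 95% interval, some a standard error (SE), and some genes are listed with the estimate alone.

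Cold itself changed most of the transcriptome. Within WT, 9787 genes (61.4%) passed the test between temperatures, 4879 higher (30.6%) and 4908 lower (30.8%) at 4 °C. Within AdC3KO, 10050 passed (63%), 4937 higher (31%) and 5113 lower (32.1%). The 2 cold responses share no library. A total of 4443 genes were called up in both genotypes, 4413 were called down in both, and 0 were called in opposite directions. Across genes, which are not independent replicates, the responses correlated with Pearson's r of 0.92 over all tested genes, and the principal axis through them had a slope of 1.01. The plot of one response against the other shows this as a narrow band on the line of equal response.

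**Figure D1:**
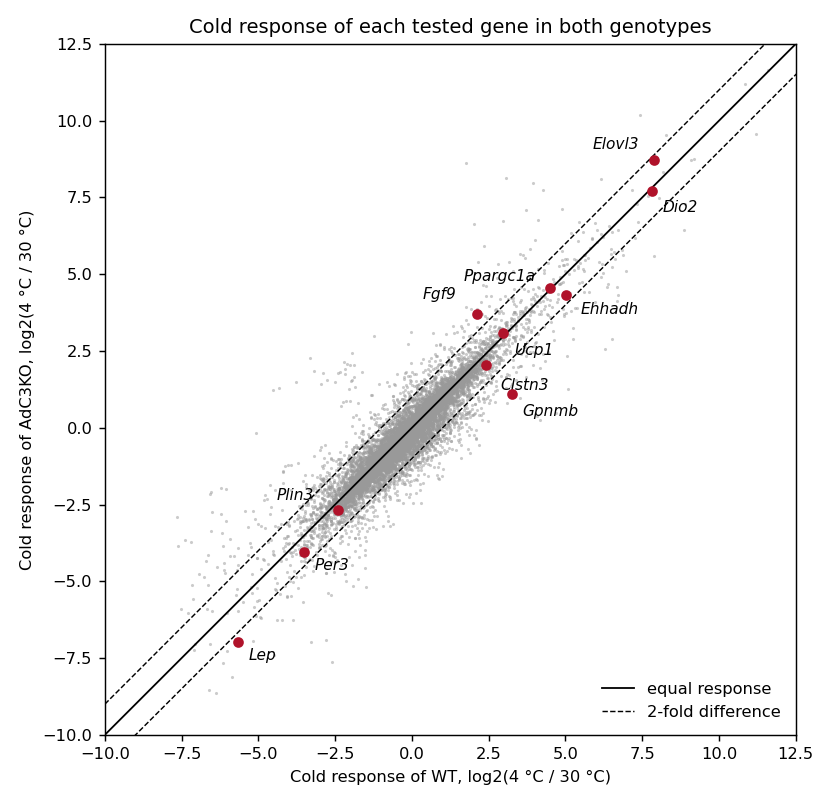
Cold response of each tested gene in WT (horizontal axis) and AdC3KO (vertical axis), as log2 of 4 °C over 30 °C; each point is 1 of 15949 genes, 2 of which lie outside the axes, and named genes are in red. The solid line marks equal responses and the dashed lines a 2-fold difference, and the estimates of 93.4% of genes lie between the dashed lines.

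The cold call was made in WT only for 931 genes and in AdC3KO only for 1194, and of these 48 and 83 had an unadjusted interaction p below 0.05. Bcl3, an IkB family protein that binds NF-kB subunits, is one of them. It read 10.6, 8.70 and 7.95 CPM at 30 °C and 10.1, 11.6, 12.7 and 8.48 CPM at 4 °C in WT, and 6.18, 5.24 and 4.799 CPM at 30 °C and 8.58, 11.5, 11.1 and 15.2 CPM at 4 °C in AdC3KO. The WT libraries overlapped between temperatures and the AdC3KO libraries did not, yet the interaction of 0.86 (SE 0.27, 95% interval 0.30 to 1.43, unadjusted p = 0.00539) missed the adjusted threshold in edgeR.

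Ucp1, the uncoupling protein that makes heat, rose as far in AdC3KO as in WT within the error of the libraries. In WT it read 1623, 1842 and 1409.7 CPM at 30 °C and 13879, 12803, 13039 and 11021 CPM at 4 °C. In AdC3KO the readings were 1382, 1428 and 2045 CPM at 30 °C and 11772, 14364, 15736 and 13065.5 CPM at 4 °C. Every cold library was above every 30 °C library, and the genotypes overlapped at both temperatures. The interaction was 0.12 (SE 0.22, interval −0.35 to 0.59), so the rise in AdC3KO was between 0.78 and 1.51 times that in WT. In units of CPM the rise was 11061 in WT and 12116 in AdC3KO, a difference of 1055 (SE 1071), and an exact permutation test of genotype within each temperature, whose null is no genotype difference at either temperature, gave p = 0.349 over 1400 arrangements.

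Dio2, the deiodinase that makes active thyroid hormone inside the brown adipocyte, was one of the largest rises in both genotypes. It read 15.2, 12.4 and 16.7 CPM in WT and 15.5, 13.98 and 22.0 CPM in AdC3KO at 30 °C. At 4 °C it read 2939, 3730.4, 3802 and 2906 CPM in WT and 3469, 4064, 3481 and 3453 CPM in AdC3KO. The 30 °C libraries of both genotypes lie together far below the cold ones. The cold response was 7.82 in WT (SE 0.16) and 7.72 in AdC3KO (SE 0.16), with an interaction of −0.10 (SE 0.23, interval −0.58 to 0.38). Without replicate 3 of AdC3KO at 30 °C the interaction was 0.11.

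Ppargc1a, which encodes PGC-1alpha, read 37.1, 35.1 and 43.6 CPM in WT and 53.3, 47.6 and 40.6 CPM in AdC3KO at 30 °C. In the cold it read 674, 882, 1226 and 718 CPM in WT and 897, 1444, 1278 and 817 CPM in AdC3KO. The cold libraries of the genotypes overlapped. The interaction was 0.05 (SE 0.31, interval −0.62 to 0.73), a wider interval than that of Ucp1. Elovl3, a fatty acid elongase that marks active BAT, had the largest positive estimate of the heat production genes, 0.83 (SE 0.59, interval −0.44 to 2.10). Its level at 30 °C rested on 62 counts over the WT libraries and 49 over the AdC3KO libraries, and at 4 °C it read 255, 199, 179 and 129 CPM in WT and 180.0, 301, 322 and 189.9 CPM in AdC3KO, which overlap. Without the 5 libraries high in muscle transcripts its interaction was 0.07. That setting keeps 1 AdC3KO library at 30 °C, replicate 3, which read 0.738 CPM where the others of its group read 0.425 and 0.595 CPM.

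**Figure D2:**
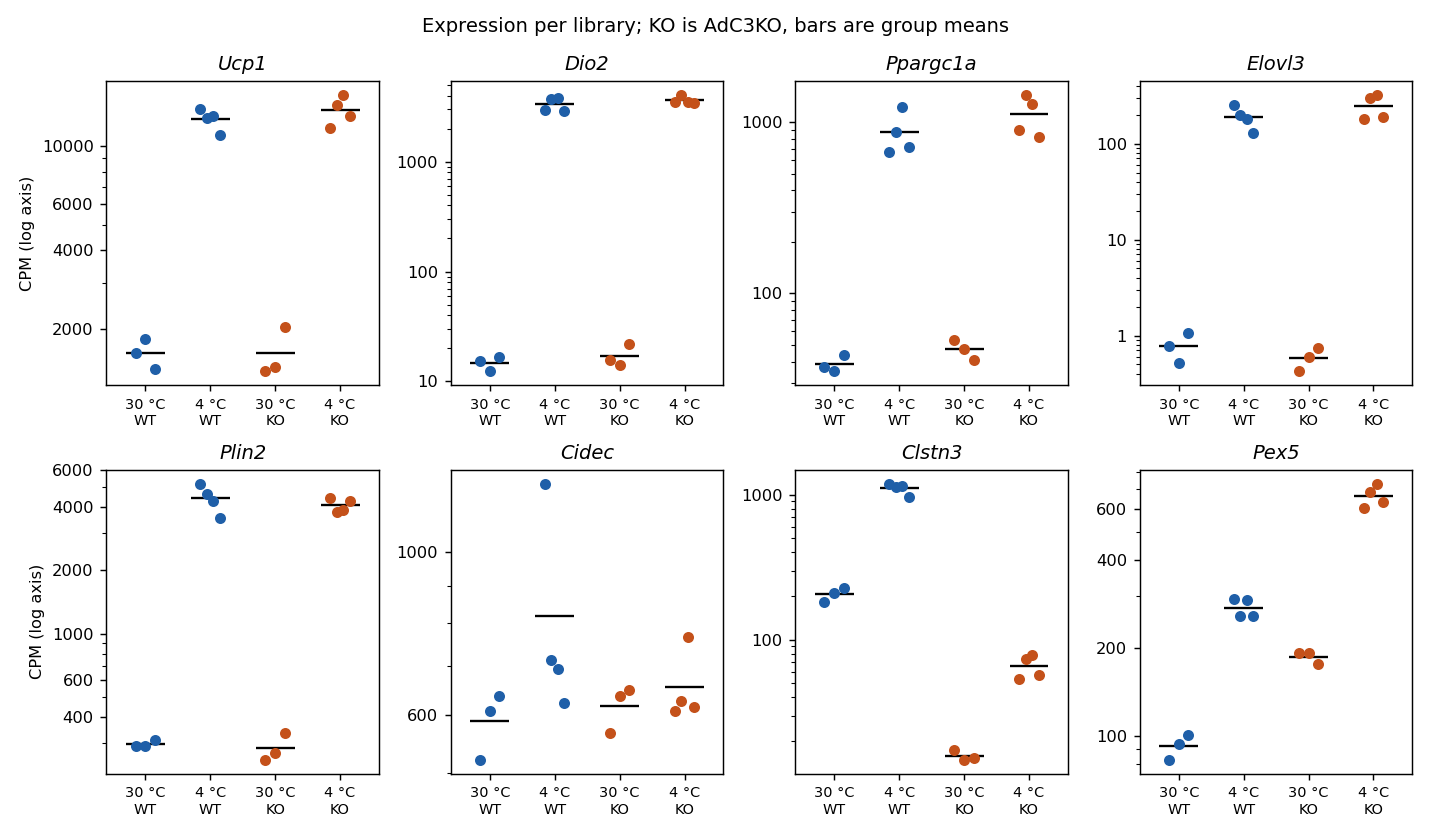
Expression of 8 genes in each library, in CPM on log axes that differ between panels; points are libraries, blue for WT and orange for AdC3KO (KO), and black bars are group means. Cold libraries lie above 30 °C libraries in both genotypes for Ucp1, Dio2, Ppargc1a, Elovl3 and Plin2, with the genotypes overlapping, 1 WT library at 4 °C stands above the rest for Cidec, and Clstn3 and Pex5 differ by genotype at both temperatures.

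Of the 20 genes of the thermogenic core, 0 had an unadjusted interaction p below 0.05, 14 had a positive estimate, and the intervals of 18 (90%) lay within 2-fold, against 60.7% of all tested genes. Within 1.5-fold lay 11 of them, against 39.1% of all (6237). These shares depend on abundance. Among all genes of 10 to 100 CPM, 93.3% of intervals lay within 2-fold and 71.1% within 1.5-fold, and above 100 CPM 94.8% and 79.3%. The median interaction of the core was 0.09, against −0.02 over all genes, and −0.07 without the 5 libraries high in muscle transcripts. Cold raised 13 of them in each genotype and lowered 4 in WT and 3 in AdC3KO, against 30.6% of all genes called higher and 30.8% lower in WT, and 31% and 32.1% in AdC3KO. The narrowest intervals were those of Esrra, a nuclear receptor that partners PGC-1alpha (0.13, interval −0.13 to 0.39), Letmd1, a mitochondrial protein (0.13, −0.15 to 0.41), the proton channel Otop1 (0.01, −0.31 to 0.33), Ppargc1b, a relative of PGC-1alpha (−0.09, −0.42 to 0.24), Gk, glycerol kinase (−0.20, −0.57 to 0.17), and Cpt1b, which admits fatty acids to the mitochondrion (0.12, −0.27 to 0.52). Gk rose most of these, by 5.42 in WT and 5.22 in AdC3KO. The 2 members with intervals beyond 2-fold were Elovl3 and the nuclear receptor Ppara, whose estimate was −0.42 (interval −1.03 to 0.18).

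In the receptor and cyclic AMP machinery, no difference in response was called. Of 23 tested members, 0 had an unadjusted interaction p below 0.05, the median was 0.01 (−0.04 with scaling by library size alone), and 16 intervals (69.6%) lay within 2-fold. The beta-3 receptor gene Adrb3 had an interaction of −0.27 (interval −1.39 to 0.85), and adenylyl cyclase Adcy3, which rose by 3.75 in WT and 3.76 in AdC3KO, had one of 0.01 (interval −0.41 to 0.43). Gnas, the stimulatory G protein that couples receptor to cyclase, had the smallest p of the group. It read 31.2, 37.8 and 50.2 CPM in WT and 65.2, 52.9 and 38.5 CPM in AdC3KO at 30 °C, and 162, 125, 137 and 142 CPM in WT and 156, 115, 114 and 135 CPM in AdC3KO at 4 °C. Groups overlapped between genotypes at both temperatures, and the interaction was −0.51 (SE 0.26, interval −1.07 to 0.04, unadjusted p = 0.0679). Prkar2b, which encodes a regulatory part of the cyclic AMP-dependent kinase, had a value of −0.47 (SE 0.24, interval −0.99 to 0.04), and of −0.21 without replicate 1 of WT at 4 °C.

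The 24 cyclic AMP targets and immediate early genes had a median cold response of 2.06 in WT and 2.24 in AdC3KO. In WT 20 rose and 1 fell, and in AdC3KO 19 rose and 1 fell, against 30.6% and 31% of all genes called higher in the cold. Their interaction intervals were wide, with 13 (54.2%) within 2-fold. The median interaction was 0.08, and −0.13 without the 5 libraries high in muscle transcripts. In this list 3 estimates had an unadjusted p below 0.05, all positive, in Fosb, Nr4a2 and Maff (3 of 24, against 2.19% of all genes), and 0 passed the adjusted threshold. Fosb, a subunit of the AP-1 transcription factor, read 0.704, 0.120 and 0.317 CPM at 30 °C and 1.71, 1.68, 2.42 and 2.28 CPM at 4 °C in WT. In AdC3KO it read 0.393, 0.409 and 0.111 CPM at 30 °C and 2.69, 4.52, 7.82 and 9.61 CPM at 4 °C. All 4 AdC3KO libraries in the cold were above the 4 WT ones, and the 30 °C groups overlapped. The interaction was 1.89 (SE 0.78, interval 0.23 to 3.55, unadjusted p = 0.028). Nr4a3, an orphan nuclear receptor and a much more abundant member, had an interaction of −0.14 (interval −2.06 to 1.77), and replicate 1 of WT at 4 °C read 47.2 CPM where the other 3 read 147 to 206. Irf4, a transcription factor that works with PGC-1alpha in BAT, had a value of −0.09 (interval −2.25 to 2.07), and Sik1, a kinase that restrains CREB coactivators, one of 0.20 (interval −0.39 to 0.78).

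Among these lists, 4 genes carry the full palindromic cyclic AMP response element TGACGTCA in the RefSeq promoter window, which runs from 250 bases before to 50 bases after the start of transcription (GRCm38.p6). The motif reads the same on both strands. RefSeq windows matched 13 of the 20 thermogenic core genes, of which 1 (7.69%) held it, and 20 of the 24 cyclic AMP targets, of which 3 (15%) held it, against 2.03% of all 27025 genes with a window. The bases before the start are printed here for all 4, in the direction of transcription and with the motif in capitals. Within the 2 lists the genes were taken for the motif. The lists themselves were chosen with earlier results of these data known, and 20 of the 24 cyclic AMP targets were called higher in the cold in WT. The positive cold estimates of all 4 genes in both genotypes, and the shares with the motif, are therefore descriptions of these lists.
Dio2, chr12:90739039-90739288, minus strand: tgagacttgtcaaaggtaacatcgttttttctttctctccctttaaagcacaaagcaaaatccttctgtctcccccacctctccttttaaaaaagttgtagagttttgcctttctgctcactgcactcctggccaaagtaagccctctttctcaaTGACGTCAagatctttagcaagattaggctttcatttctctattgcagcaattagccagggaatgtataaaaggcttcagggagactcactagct
Dusp1, chr17:26508473-26508722, minus strand: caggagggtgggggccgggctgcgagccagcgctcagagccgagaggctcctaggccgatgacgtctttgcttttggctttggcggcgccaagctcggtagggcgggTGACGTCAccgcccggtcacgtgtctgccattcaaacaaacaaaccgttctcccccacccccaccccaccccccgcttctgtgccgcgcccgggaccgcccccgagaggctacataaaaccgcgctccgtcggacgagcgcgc
Maff, chr15:79347270-79347519, plus strand: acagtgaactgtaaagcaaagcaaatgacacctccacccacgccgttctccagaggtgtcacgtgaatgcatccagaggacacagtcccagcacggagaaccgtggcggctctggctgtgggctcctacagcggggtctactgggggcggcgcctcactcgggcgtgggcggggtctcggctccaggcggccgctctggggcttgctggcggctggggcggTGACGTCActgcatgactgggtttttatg
Btg2, chr1:134079156-134079405, minus strand: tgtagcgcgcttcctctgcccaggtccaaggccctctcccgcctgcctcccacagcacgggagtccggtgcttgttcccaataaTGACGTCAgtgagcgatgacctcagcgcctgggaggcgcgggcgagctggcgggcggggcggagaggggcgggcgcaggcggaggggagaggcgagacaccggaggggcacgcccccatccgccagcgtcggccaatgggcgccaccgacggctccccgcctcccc

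The motif began 95 bases before the start in Dio2, 143 in Dusp1, 29 in Maff and 166 in Btg2. Dusp1, a phosphatase that turns off MAP kinases, rose by 3.39 in WT and 3.70 in AdC3KO, an interaction of 0.31 (interval −0.23 to 0.85). Maff, a small MAF transcription factor, rose by 3.79 and 4.46, an interaction of 0.67 (interval 0.01 to 1.34) that missed the adjusted threshold. Btg2, an antiproliferative gene, rose by 0.78 and 0.64, an interaction of −0.14 (interval −0.62 to 0.35). A match describes these letters and was not tested as a site of binding.

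Lipid droplet genes, which the series title places next to CLSTN3B, had no called difference in cold response. Of 19 tested, 10 were called higher and 3 lower in the cold in WT, and 9 and 2 in AdC3KO. Over all genes 30.6% were called higher and 30.8% lower in WT, and 31% and 32.1% in AdC3KO. In the interaction, 1 had an unadjusted interaction p below 0.05 and 17 intervals (89.5%) lay within 2-fold. The median interaction was −0.05, and −0.26 without the 5 libraries high in muscle transcripts. Plin2, the perilipin that coats growing droplets, read 292, 292 and 309.7 CPM at 30 °C and 5181, 4621, 4259 and 3540.4 CPM at 4 °C in WT. In AdC3KO it read 250, 271 and 336 CPM at 30 °C and 4403, 3783, 3858 and 4266 CPM at 4 °C. The ranges of the genotypes cross at both temperatures. With an interaction of −0.05 (SE 0.19, interval −0.45 to 0.35), the rise in AdC3KO was between 0.73 and 1.28 times that in WT.

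Plin3, a perilipin that moves between cytosol and droplet, fell in the cold and had the smallest interaction p of the group. It read 136, 138 and 139 CPM at 30 °C and 24.99, 26.5, 24.8 and 26.7 CPM at 4 °C in WT, and 149, 132 and 155 CPM at 30 °C and 23.2, 21.3, 21.9 and 23.4 CPM at 4 °C in AdC3KO. All 4 AdC3KO libraries in the cold were below all 4 WT ones, and at 30 °C the genotypes overlapped. The cold response was −2.42 in WT and −2.69 in AdC3KO, and the interaction of −0.27 (SE 0.11, interval −0.50 to −0.05, unadjusted p = 0.0204) did not pass the adjusted threshold.

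Cidec, which drives fusion of droplets in adipocytes, showed what 1 library can do to the estimate. It read 521, 607 and 636 CPM in WT and 566, 636 and 648 CPM in AdC3KO at 30 °C. At 4 °C it read 1239.7, 713, 693 and 622 CPM in WT and 608, 627, 767 and 614 CPM in AdC3KO. Replicate 1 of WT stood alone above the other 13 libraries. The interaction was −0.39 (SE 0.27, interval −0.96 to 0.18), and without that library it was −0.09. The same library was the highest for Plin1, the gatekeeper of lipolysis at the droplet surface, whose interaction was −0.24 (SE 0.22, interval −0.70 to 0.23) and −0.03 without it. Cidea, the fusion factor of brown adipocytes, had an interaction of 0.06 (SE 0.20, interval −0.36 to 0.48). Values for the perilipins Plin4 and Plin5 were −0.02 (interval −0.50 to 0.46) and −0.22 (−0.65 to 0.22), and for Bscl2, the seipin of droplet formation, 0.03 (−0.29 to 0.36).

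**Figure D3:**
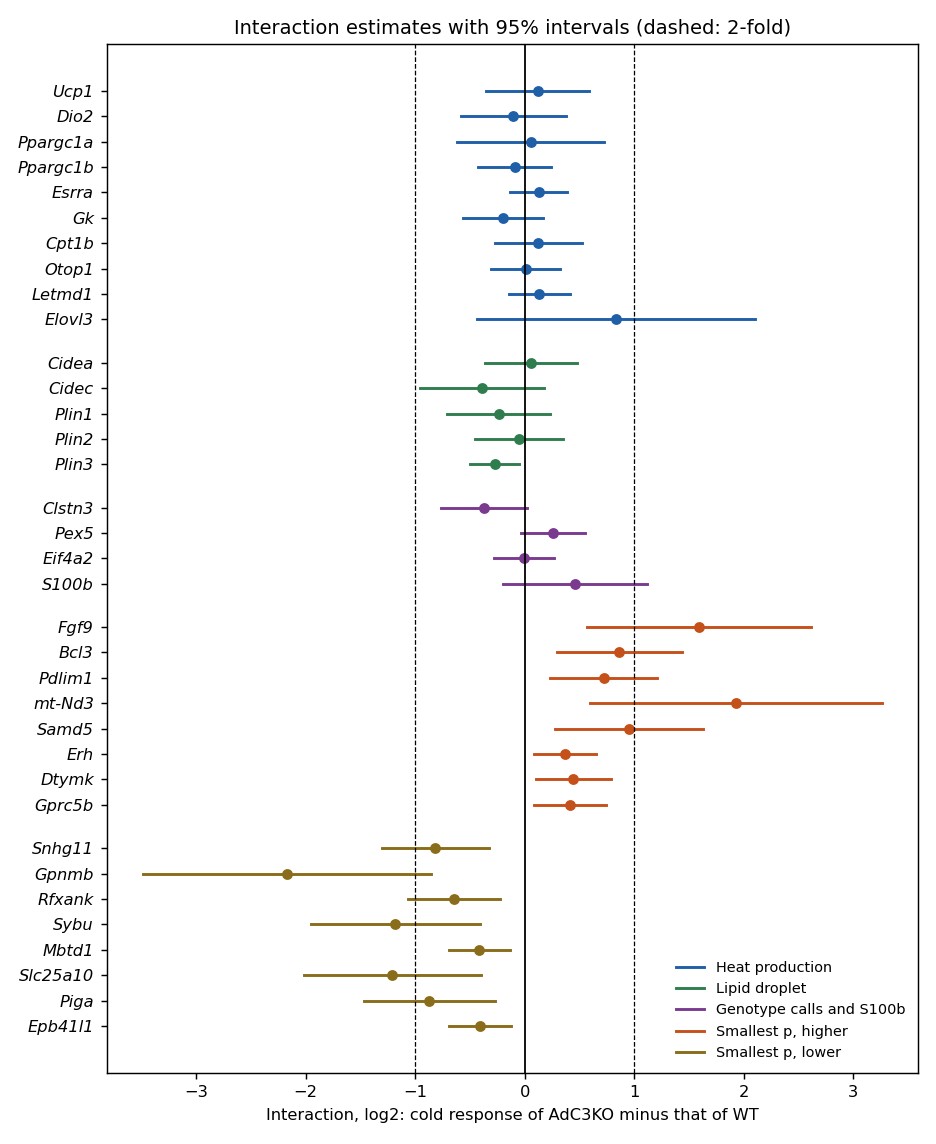
Interaction of named genes on the log2 scale (AdC3KO cold response less the WT one); points are estimates, bars 95% intervals, and colours the group of genes. Heat production and droplet genes lie around 0, with Elovl3 the widest at −0.44 to 2.10, and the genes at the bottom were chosen for their small p, so their distance from 0 is a description.

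Enzymes that store and release fat gave the same picture. Among 15 lipolysis genes the median interaction was −0.06 and among 18 triglyceride synthesis genes −0.15, with 0 members of either at an unadjusted p below 0.05. Without the 5 libraries high in muscle transcripts the lipolysis median was −0.31, and without replicate 1 of WT at 4 °C the triglyceride synthesis median was −0.05. Acsl1, which activates fatty acids, had the smallest p in triglyceride synthesis, rising by 2.26 in WT and 1.81 in AdC3KO (interaction −0.46, interval −1.02 to 0.11, and −0.23 without replicate 1 of WT at 4 °C). The hormone-sensitive lipase gene Lipe had an interaction of −0.42 (interval −0.97 to 0.14, and −0.15 without that library), adipose triglyceride lipase Pnpla2 one of −0.06 (−0.45 to 0.34) and lipoprotein lipase Lpl one of 0.17 (−0.27 to 0.60). In de novo lipogenesis 11 of 18 intervals (61.1%) lay within 2-fold, with a value of 0.17 for Fasn (interval −1.69 to 2.04) and of 0.01 for Scd1 (−1.43 to 1.46).

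Some factors released by BAT changed far more. Fgf21, a hormone of energy balance, had 7 counts over the 3 libraries of each genotype at 30 °C and read 28.9, 40.8, 21.6 and 19.9 CPM in WT and 31.3, 22.8, 22.2 and 37.6 CPM in AdC3KO at 4 °C. The cold groups overlap, and the interaction of 0.16 (SE 1.26) has an interval of −2.56 to 2.88. Lep, which encodes leptin, fell, with cold responses of −5.68 in WT and −6.98 in AdC3KO. It read 3.77, 1.83, 3.13 and 2.41 CPM in WT and 1.86, 0.172, 0.684 and 1.14 CPM in AdC3KO at 4 °C, groups that overlap at their edges, with an interaction of −1.30 (interval −3.07 to 0.48). Acot5, a peroxisomal thioesterase, had 0 counts in all 30 °C libraries, which allows up to 3 counts over a group. Against that floor it was at least 412-fold higher in WT and at least 470-fold higher in AdC3KO at 4 °C, and no interaction can be given.

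Fgf9, a fibroblast growth factor, had the smallest p of the positive estimates among genes with a regular symbol and a group mean of at least 5 CPM. It read 0.663, 0.958 and 0.633 CPM at 30 °C and 1.65, 4.72, 3.47 and 3.26 CPM at 4 °C in WT. In AdC3KO it read 0.491, 0.409 and 0.664 CPM at 30 °C and 4.997, 8.48, 5.82 and 8.35 CPM at 4 °C. The cold groups did not overlap and the 30 °C groups did. The interaction was 1.59 (SE 0.48, interval 0.57 to 2.62, unadjusted p = 0.00438), and 1.38 to 1.86 over the alternatives run, none of which gave it an adjusted p below 0.05.

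By the same rule the smallest p of the negative estimates belonged to Snhg11, a small nucleolar RNA host gene. It read 34.8, 35.8 and 34.9 CPM at 30 °C and 12.4, 6.34, 7.88 and 8.15 CPM at 4 °C in WT, and 43.2, 39.5 and 40.8 CPM at 30 °C and 5.71, 6.54, 5.96 and 4.89 CPM at 4 °C in AdC3KO. The cold response was −2.02 in WT and −2.83 in AdC3KO, an interaction of −0.81 (SE 0.23, unadjusted p = 0.00294 in edgeR), from groups that did not overlap at 30 °C and overlapped at 4 °C. Next was Gpnmb, a glycoprotein of lipid-laden macrophages. It read 1.70, 0.918 and 0.985 CPM at 30 °C and 6.60, 20.3, 7.60 and 11.2 CPM at 4 °C in WT, against 4.68, 2.49 and 1.40 CPM at 30 °C and 7.61, 6.37, 5.03 and 5.31 CPM at 4 °C in AdC3KO. The genotypes overlapped at both temperatures, the interaction was −2.17 (SE 0.61, unadjusted p = 0.0034), and without the 5 libraries high in muscle transcripts it was −0.50.

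The other genes named by this rule follow with their estimates. On the positive side were Pdlim1 (0.72), Samd5 (0.96), Dtymk (0.44), Gprc5b (0.42), Erh (0.37) and mt-Nd3 (1.93), and Bcl3 above. On the negative side were Sybu (−1.18), Slc25a10 (−1.21), the mitochondrial dicarboxylate carrier, Piga (−0.87), Rfxank (−0.65), Mbtd1 (−0.41) and Epb41l1 (−0.41). Slc25a10 read 9.69, 18.8 and 10.5 CPM at 30 °C and 9.96, 7.02, 9.07 and 8.64 CPM at 4 °C in WT, and 15.4, 23.0 and 9.45 CPM at 30 °C and 4.44, 5.17, 4.54 and 4.22 CPM at 4 °C in AdC3KO. The cold groups did not overlap. The 30 °C groups overlapped, and without the 5 libraries high in muscle transcripts the interaction was −0.41. All of these genes were picked by their p, and all had an adjusted p of 0.9999 in edgeR.

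Respiratory chain genes had small, mostly positive interactions. Of 41 nuclear-encoded subunits, 40 had a positive interaction, against 7304 of 15949 over all genes, with a median of 0.15, 40 intervals (97.6%) within 2-fold and 0 at an unadjusted p below 0.05. Of 22 citric acid cycle enzymes 20 were positive, with a median of 0.09 and all 22 intervals within 2-fold. Muscle transcripts also had positive estimates, with wide intervals. The skeletal muscle genes had a median interaction of 3.97 with intervals of a median half-width of 6.31, from 18 of 18 positive estimates of which 0 had an unadjusted p below 0.05, and without replicate 3 of AdC3KO at 4 °C that median was −0.88. Without all 5 libraries high in muscle transcripts the median became −0.10 for the respiratory chain and −0.07 for the citric acid cycle. That setting keeps 1 AdC3KO library at 30 °C, replicate 3. Leaving out replicate 3 of AdC3KO at 30 °C instead gave a respiratory chain median of 0.26. In the setting without the 5 libraries, muscle content and reliance on 1 AdC3KO library at 30 °C cannot be told apart. Over the 28 alternatives, which include a muscle covariate fitted on all 14 libraries, each of these 2 medians changed sign in 1. That was the setting without the 5 libraries. The part of muscle was not tested. Nuclear-encoded Atp5b, the catalytic subunit of ATP synthase, had an interaction of 0.06 (interval −0.27 to 0.38), and Ndufs8 of complex I, the smallest p of the list, one of 0.24 (−0.14 to 0.62).

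Transcripts of the mitochondrial genome had a median interaction of 0.30 over 13 genes, 13 of them positive, and 4 at an unadjusted p below 0.05, against 2.19% of all genes. Those 4, mt-Nd3, mt-Nd4l, mt-Co3 and mt-Atp6, had group means of at most 87.6 CPM. The 2 most abundant, mt-Co1 and mt-Cytb, had values of 0.05 (interval −0.50 to 0.60) and 0.26 (−0.25 to 0.76). mt-Nd3 read 3.77, 8.58 and 6.30 CPM at 30 °C and 3.71, 5.08, 6.50 and 5.30 CPM at 4 °C in WT, and 1.93, 1.75 and 1.70 CPM at 30 °C and 8.02, 9.17, 3.67 and 1.81 CPM at 4 °C in AdC3KO. All 3 AdC3KO libraries at 30 °C were below all WT ones, and at 4 °C the genotypes overlapped. Without the 5 libraries high in muscle transcripts the median of the 13 genes was 0.11. Nuclear copies of mitochondrial DNA can share these reads, and how reads with several alignments were counted is not given in the sources used here, so these values are uncertain.

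The Clstn3 locus itself (chromosome 6, 124430759 to 124464794, minus strand, GRCm38) rose in the cold in both genotypes. It read 182, 210.3 and 228 CPM at 30 °C and 1195, 1125, 1148 and 970.0 CPM at 4 °C in WT, and 17.3, 14.8 and 15.3 CPM at 30 °C and 53.9, 73.9, 77.9 and 57.6 CPM at 4 °C in AdC3KO. No library of one genotype reached the other at the same temperature. The cold response was 2.42 in WT (SE 0.13) and 2.06 in AdC3KO (SE 0.13), and the interaction of −0.37 (SE 0.19, interval −0.76 to 0.02, unadjusted p = 0.0644) did not pass. In CPM the 2 rises were far apart, 903 in WT and 49.98 in AdC3KO, a difference of −853 (SE 50.9, exact permutation p = 0.0286), while on a log2(CPM + 1) scale the difference was −0.45 with p = 0.999. The null of that test is no genotype difference at either temperature, and Clstn3 differs between genotypes at both. Exchanging genotype labels carries that difference into the permuted values. Neither the small nor the large permutation p therefore says anything about the interaction. Clstn3b and full-length Clstn3 share 1 gene entry in the annotation and were not separated.

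Between genotypes at a single temperature, 7 genes were called at 30 °C (0.0439%) and 8 at 4 °C (0.0502%), Clstn3 among them, and for each the interaction asks whether cold changed the genotype difference. Pex5, the import receptor of peroxisomes and the next gene on the same strand (chromosome 6, 124396816 to 124415067), read 82.7, 94.0 and 100.8 CPM at 30 °C and 294, 257, 291 and 257 CPM at 4 °C in WT. In AdC3KO it read 192, 192 and 176 CPM at 30 °C and 604, 682, 731 and 634 CPM at 4 °C. Genotypes did not overlap at either temperature. The interaction of 0.26 (SE 0.14, interval −0.03 to 0.55, unadjusted p = 0.0741 in edgeR) did not pass. In CPM the rise was 182 in WT and 476 in AdC3KO (difference 294, SE 30.6, exact permutation p = 0.0371, and p = 0.791 on the log2(CPM + 1) scale). The null of the permutation test is no genotype difference at either temperature, and Pex5 differs between genotypes at both. As for Clstn3, neither permutation p says anything about the interaction.

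Gm44007, an annotated transcript of unsettled type past the end of Pex5 (chromosome 6, 124381972 to 124384160, minus strand), had counts mainly in AdC3KO in the cold. It had 2, 0 and 0 counts in WT and 2, 2 and 2 in AdC3KO at 30 °C, and 9, 5, 3 and 2 in WT and 135, 332, 222 and 58 in AdC3KO at 4 °C. The fitted interaction was 3.76 (SE 1.88, interval −0.26 to 7.79), which edgeR did not call (unadjusted p = 0.126). The exact permutation test gave p = 0.0243 on both the CPM and the log2(CPM + 1) scale. That test asks about any genotype difference, and Gm44007 was examined because it was called between genotypes at 4 °C. Its small permutation p therefore says nothing about the interaction. Still farther along, Gm44006 (plus strand, 124372162 to 124374805) had 0 counts in both genotypes at 30 °C, 1 count over the WT libraries and 43, 74, 64 and 6 counts in AdC3KO at 4 °C. Likewise 1700027F06Rik (minus strand, 124363301 to 124364519) had 0 counts at 30 °C, 3 over the WT libraries and 18, 56, 53 and 5 in AdC3KO at 4 °C. Replicate 4 of AdC3KO at 4 °C was the lowest of its group for all 3. Against the floor of 3 counts over the AdC3KO libraries at 30 °C, Gm44006 was at least 57.6-fold and 1700027F06Rik at least 41.5-fold higher in AdC3KO at 4 °C. With a group at 0 the model gives no usable interaction, and these 2 genes are described after their values were seen. The strand setting of the counting is not given in the sources used here, so reads of the opposite strand may be included.

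Over the 23 tested genes within 500 kb of Clstn3 that had counts in every group, Pex5 and Gm44007 included, 0 had an unadjusted interaction p below 0.05, and the median was −0.08, from −1.31 to 3.76. Lpcat3, a phospholipid remodelling enzyme, had a value of −0.24 (interval −0.55 to 0.07) and Phb2, a mitochondrial prohibitin, one of 0.03 (−0.27 to 0.34). Among the genes called elsewhere, Eif4a2, a translation helicase on chromosome 16, rose by 0.84 in WT and 0.83 in AdC3KO (interaction −0.01, SE 0.13, interval −0.28 to 0.26). It read 332, 369.6 and 379 CPM at 30 °C and 688, 620.2, 594 and 679.5 CPM at 4 °C in WT, and 534, 579.5 and 549 CPM at 30 °C and 1024, 955, 1056 and 911 CPM at 4 °C in AdC3KO. Genotypes did not overlap at either temperature. Kng1, a kininogen gene on the same chromosome, had 6 counts over the WT libraries at each temperature and an interaction of 0.23 with an interval of −1.48 to 1.95. Ankdd1a, on chromosome 9, was called between genotypes at 30 °C and not at 4 °C. It read 0.166, 0.160 and 0.106 CPM at 30 °C and 0, 0.0524, 0 and 0.122 CPM at 4 °C in WT, and 1.37, 2.01 and 2.25 CPM at 30 °C and 0.186, 0.172, 0.0977 and 0.253 CPM at 4 °C in AdC3KO. The genotypes did not overlap at 30 °C and overlapped at 4 °C. The cold response was −1.47 in WT, which was not called, and −3.35 in AdC3KO, and the interaction of −1.88 (SE 0.98, interval −3.96 to 0.19, unadjusted p = 0.0905 in edgeR) was −0.63 without replicate 4 of WT at 4 °C, in a group that held 4 counts. Zfp949, Gm11868 and Gm7049, the other called genes, had interactions of 0.14 (interval −0.25 to 0.53), 0.16 (−1.64 to 1.95) and −0.10 (−1.59 to 1.39).

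S100b, a neurotrophic factor for sympathetic axons in fat, overlapped throughout. It read 91.3, 81.1 and 62.0 CPM at 30 °C and 61.2, 38.4, 71.6 and 52.2 CPM at 4 °C in WT, and 52.4, 49.3 and 75.1 CPM at 30 °C and 50.3, 52.2, 55.9 and 73.6 CPM at 4 °C in AdC3KO. The interaction of 0.46 (SE 0.31, interval −0.20 to 1.12) allows up to a 2.17-fold larger ratio in AdC3KO. Innervation and Schwann cell genes as a list had 11 tested members with a median of 0.06, and 4 intervals (36.4%) within 2-fold. That share was 60.7% over all genes, and it depends on abundance, with 42.8% for genes of 1 to 10 CPM.

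The remaining lists had 1 member or fewer at an unadjusted p below 0.05, apart from endothelial genes. Heat shock genes, with a median cold response of 2.08 in WT and 2.13 in AdC3KO, had a median interaction of 0.14, and Hspa8, the most abundant, rose by 2.81 and 3.06 (interaction 0.25, interval −0.13 to 0.63). For the circadian clock the median was −0.08, and Per3, a period gene, fell, with cold responses of −3.53 in WT and −4.03 in AdC3KO (interaction −0.50, interval −0.97 to −0.04, unadjusted p = 0.0363). Peroxisome genes had a median of −0.06 over 28 members and endoplasmic reticulum stress genes one of −0.09 over 26. Fatty acid oxidation gave 0.04 over 29, with 26 intervals (89.7%) within 2-fold. Without the 5 libraries high in muscle transcripts the sign of the median turned for fatty acid oxidation (−0.15) and for de novo lipogenesis (0.01 against −0.04). In glycolysis the median was 0.11 and Pfkp, the platelet phosphofructokinase, rose by 1.91 and 2.30 (interaction 0.40, interval 0.06 to 0.73, unadjusted p = 0.0228). The plot of list medians sets the responses side by side.

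**Figure D4:**
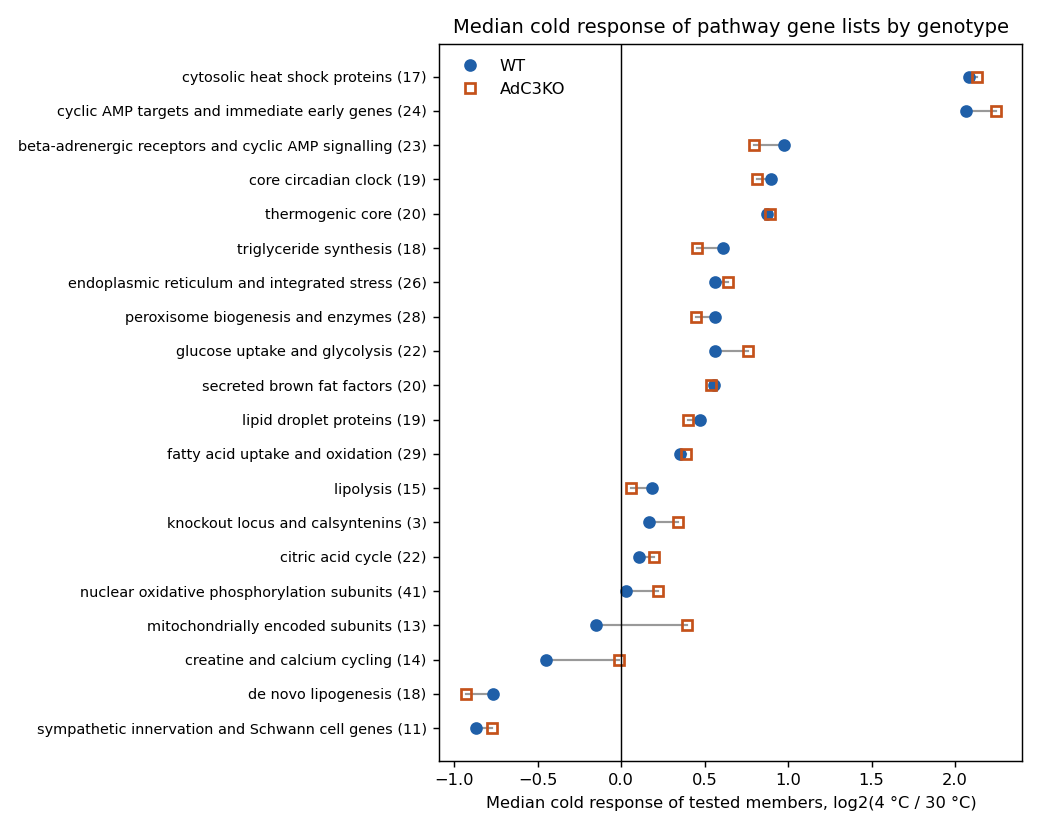
Median cold response of the tested members of the pathway lists on the log2 scale (cell type and interferon lists are not plotted), filled circles for WT and open squares for AdC3KO, with the number of tested genes in brackets. The 2 symbols lie at 0.87 and 0.89 for the thermogenic core, and at −0.15 and 0.39 for the mitochondrially encoded subunits, the widest gap among the lists plotted.

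In genes of other cell types the precision varied. Fewer cells of a type and less RNA per cell cannot be told apart in whole tissue. Endothelial genes had 13 of 14 intervals within 2-fold and a median of 0.11, and Kdr, a VEGF receptor, and Cdh5, VE-cadherin, had an unadjusted p below 0.05, with interactions of 0.34 (interval 0.04 to 0.65) and 0.41 (0.01 to 0.80). Kdr read 332, 352, 335 and 364 CPM in WT and 368, 392, 369 and 372 CPM in AdC3KO at 4 °C, groups that do not overlap, and its 30 °C groups did. Macrophage genes had a median of −0.53 and 0 of 15 intervals within 2-fold, and interferon response genes a median of −0.54 and 0 of 21. Without the 2 libraries high in interferon genes these medians were −0.40 and 0.49, and without replicate 4 of WT at 4 °C alone −0.13 and 1.15. The part of cell composition in these values was not tested.

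The size of a difference that the libraries could exclude depended on abundance. Over all genes the median SE of the interaction was 0.27 and the median half-width of its interval 0.57, equal to 1.48-fold. For the 1506 genes above 100 CPM the half-width was 0.32 (1.25-fold), and 94.8% of intervals lay within 2-fold, and for the 6623 genes of 10 to 100 CPM it was 0.36 (1.29-fold) with 93.3%. It widened to 0.84 (1.79-fold) for the 4838 genes of 1 to 10 CPM, where 42.8% lay within 2-fold, and to 1.75 (3.36-fold) for the 2982 genes under 1 CPM, where 1 gene did. For Ucp1 the half-width was below that 2-fold bound, and for Fgf21 and Fasn it was above it.

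**Figure D5:**
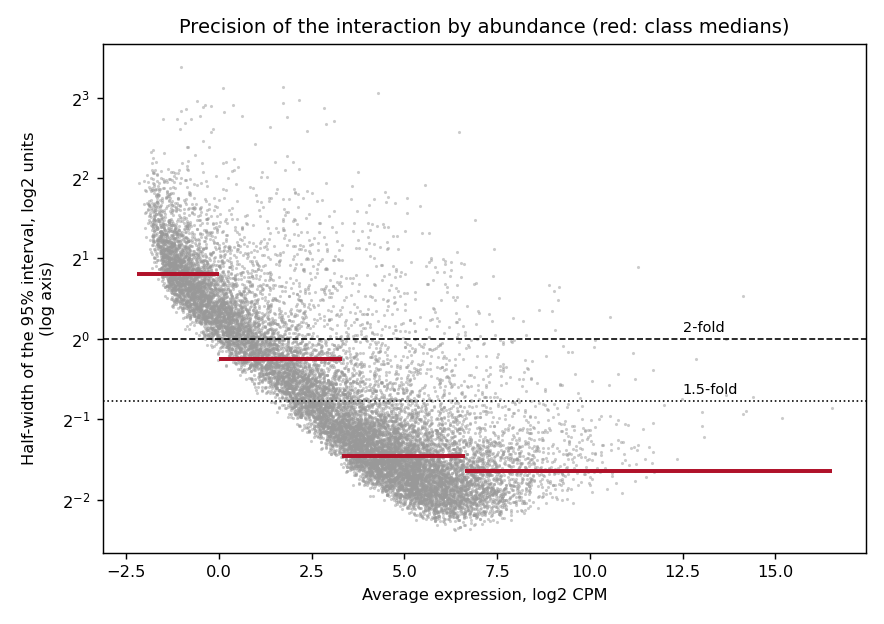
Half-width of the 95% interval of the interaction (vertical, log2 units on a log axis) against average expression (horizontal, log2 CPM), 1 point per gene with counts in every group; red bars are medians of 4 classes of abundance. The medians fall from 1.75 under 1 CPM to 0.32 above 100 CPM, below the dashed 2-fold and dotted 1.5-fold lines.

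Genes changed at least 2-fold by cold were then read as shares of the log2 response, which are not shares of the fold change. Genes were taken by the average response of both genotypes, so that the choice favoured neither, at an adjusted p below 0.05 and at least 2-fold, which gave 2352 rises (14.7%) and 3245 falls (20.3%). The median rise was 1.57 in WT and 1.56 in AdC3KO, and the median response of falling genes −1.63 in WT and −1.69 in AdC3KO, on the log2 scale. The 95% interval placed the AdC3KO response above 0.5 of the WT response for 3718 of the 5597 genes (66.4%), 73.0% of rises and 61.7% of falls. The mirrored count, WT above 0.5 of AdC3KO, was 3488 (62.3%). At 0.75 the counts were 1830 (32.7%) and 1439 (25.7%). Ucp1, Dio2, Ppargc1a, Elovl3, Gk, Plin2, Plin3, Hspa8 and Nr4a3 were above 0.75 of the other genotype's log2 response both ways, whereas for Fasn, Gnas, Gpnmb and Dtymk the interval of AdC3KO reached below 0.5 of WT. A large log2 response leaves room for a large difference in fold: for Nr4a3 the interval of the interaction allows a fold rise in AdC3KO of 0.24 to 3.41 times that in WT.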

How the data were processed

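RNA-seq counts of 14 BAT libraries were analysed. Per the labels' protocols, total RNA (TRIzol, then RNeasy) went into NEBNext Ultra II libraries. Per the series' design text, the authors trimmed reads with Trimmomatic, aligned them to GRCm38/mm10 with STAR and counted them per gene with HTSeq. Tool versions, annotation release and strand setting: not given in the sources used here. Whole-number read counts for 55471 Ensembl genes were deposited by the authors. The 5 summary lines that name no gene entered neither totals nor tests: reads in no feature were 5.95% to 8.19% of a library and ambiguous reads 5.53% to 6.03%. Symbols came from GENCODE M21, which matched 55230 identifiers. Within groups, no 2 libraries matched within counting noise (chi-square per degree of freedom 16.9 to 83.5).

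Counts were fitted with edgeR 4.0.16 in R 4.3.3 (filterByExpr with a minimum count of 10, TMM factors of 0.822 to 1.21, robust quasi-likelihood, 1 fit of 4 group means over all 14 libraries), which tested 15949 genes at a common biological coefficient of variation of 0.20. The 95% interval of the interaction came from the fit's information and the moderated dispersion, with a t quantile, and was not computed for the 85 genes with a group at 0 counts. Log2 fold changes and every adjusted p come from the edgeR fit over all tested genes. DESeq2 1.42.0 and limma 3.58.1 were alternatives. CPM values use the TMM factors.

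The members and the gene lists were chosen with earlier results of these data known. Named genes were those of a fixed list of study genes (Clstn3, Pex5, Kng1, Eif4a2, Ucp1, Ppargc1a, Dio2, Cidea, Cidec, Plin1, Elovl3, Fgf21 and S100b), the 8 with the smallest interaction p in each direction with a regular symbol and at least 5 CPM in a group, the 2 most abundant members and the smallest p of each list, the 8 largest rises and falls in the cold, genes called between genotypes, and the 6 narrowest intervals among the largest changes and the thermogenic core. Not every one is printed, and other list members and the genes near Clstn3 are named from the lists. Where groups shared replicate numbers, deviations from the group means correlated between −0.34 and 0.30 over 19 pairs by the number in the title, with 1 over 0.1. By the number in the description they correlated between −0.27 and 0.30 over 14 pairs, with 3 over 0.1. No pairing of libraries was seen by either number, which does not exclude one, and the main fit used none. Alternatives were other scalings, filters, tools, a replicate block, a muscle covariate and leaving out libraries.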

Additional observations from a re-analysis of the deposited data

Results flagged for a closer look

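Over the 120 named genes, 240 groups of 4 libraries at 4 °C were examined on the log2(CPM + 1) scale for 1 library whose gap to the nearest other, as a share of the group's range, exceeded Dixon's 95% critical value. Chance marks about 5% of groups, and 17 (7.08%) were marked. In 0 genes did all libraries of the genotypes move in opposite directions.

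Among genes of heat production and lipid droplets, Dio2 read 4064.2 CPM in replicate 2 of AdC3KO against 3453.3 to 3481.0 CPM in the other 3. Cidec read 766.7 CPM in replicate 3 of AdC3KO against 607.6 to 626.7 CPM. The calcium pump Atp2a2 read 1120.9 CPM in replicate 2 of AdC3KO against 808.3 to 836.3 CPM, and the calcium channel Ryr2 read 1.88 CPM in replicate 4 of WT against 3.48 to 3.85 CPM. The chaperone Hsp90ab1 read 3609 CPM in replicate 2 of WT against 2736 to 2818 CPM.

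Muscle genes stood out in libraries high in muscle transcripts. Myh4 read 15.5 CPM in replicate 2 of WT and 141 CPM in replicate 3 of AdC3KO, against 0 in the others, and the calcium store protein Casq1 read 9.29 CPM in replicate 3 of AdC3KO against 0.298 to 0.474 CPM. The interferon-induced gene Bst2 read 213 CPM in replicate 4 of WT against 22.0 to 32.2 CPM, and 91.5 CPM in replicate 1 of AdC3KO against 23.1 to 27.3 CPM.

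Collagen Col3a1 read 478 CPM in replicate 3 of AdC3KO against 349 to 365 CPM. Haemoglobin Hba-a1 read 77.1 CPM in replicate 4 of WT against 115 to 124 CPM, and Hbb-bs read 294 CPM in replicate 1 of AdC3KO against 357 to 360.0 CPM. The mitochondrial mt-Cytb read 42201 CPM in replicate 1 of WT against 29761 to 31015 CPM. Kng1 read 0.122 CPM in replicate 4 of WT against 0.0475 to 0.0589 CPM, Samd5 read 0.408 CPM in replicate 4 of WT against 0.471 to 0.475 CPM, and Sybu read 0.861 CPM in replicate 2 of AdC3KO against 1.16 to 1.22 CPM.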

How the results depend on the processing

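The count of called interactions was 0 under every alternative run except the muscle covariate, which called 1 gene, Myh4 (edgeR, −6.95, SE 1.07, adjusted p = 0.000809 against 0.9999 without the covariate), itself a member of the list that makes the covariate. Genes at an unadjusted p below 0.05 numbered 801 with every gene that had a count (30606 tested), 173 with genes of at least 5 CPM (10575 tested), 533 with limma voom and sample weights, 206 without the 5 libraries high in muscle transcripts, and 253 to 463 when each library was left out in turn. A replicate block gave 300 such genes by the number in the title and 314 by that in the description, with 9676 and 9260 intervals within 2-fold and 0 calls. Without the 5 libraries high in muscle transcripts, which leaves 1 AdC3KO library at 30 °C, assumed to vary like the other groups, 2835 intervals lay within 1.5-fold and 6589 genes were called for cold in AdC3KO. Leaving out each library gave 9199 to 9718 intervals within 2-fold. Tighter bounds gave 6237 intervals within 1.5-fold and 1830 genes above 0.75 of the WT response. Among the genes changed at least 4-fold, 701 rises and 1089 falls, 1190 were above 0.5 of the WT response. That is a smaller set than the 5597 genes changed at least 2-fold, so its count is not comparable with theirs. Counts at a tighter bound or in a smaller set are lower by definition, and the cause of the other shifts was not tested. Of 3352 values over 120 named genes and 28 alternatives, 3267 moved by less than 1 SE, 84 moved by more and 1 became called. The median interaction of all genes was −0.06 with library size alone. Among the 2982 genes under 1 CPM, 1 interval lay within 2-fold.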

Other observations

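Several gene groups outside the comparisons above had wide or small interactions, with edgeR calling 0 members. Creatine and calcium cycling genes had a median interaction of 0.01 over 14 genes, and −0.23 without the 5 libraries high in muscle transcripts. Its members Ryr1 and Atp2a1 are also on the muscle list. Fibroblast and matrix genes had a median of −0.10 over 16 genes, with 15 intervals (93.8%) within 2-fold, and a median of 0.16 without those libraries. Red blood cell genes had a median of 0.31, with 7 of 7 estimates positive and 1 at an unadjusted p below 0.05, the bisphosphoglycerate mutase gene Bpgm (0.45), and a median of 0.08 without those libraries. Lymphocyte genes had a median of −1.06 over 13 genes with 0 intervals within 2-fold, and of 0.19 without replicate 4 of WT at 4 °C. Brown adipocyte identity genes had a median of 0.01 with 12 of 12 intervals within 2-fold, and −0.25 without the 5 libraries.

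Mfsd2a, a lysophospholipid transporter, was among the largest rises in both genotypes. It had 2 counts over the WT libraries and 1 over the AdC3KO libraries at 30 °C, in replicate 2 of each genotype. At 4 °C it read 83.1, 134.2, 115.3 and 181.4 CPM in WT (mean 128.5) and 157.8, 213.5, 199.8 and 157.8 CPM in AdC3KO (mean 182). The genotypes overlapped in the cold. The interaction of 1.37 rested on those few counts at 30 °C and was not called.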
